A study of Rattus norvegicus with 16 samples.

Results

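The genes described here are the families that carry out vesicle exocytosis: synapsins, synaptotagmins, syntaxins and their binding proteins, vesicle-associated membrane proteins (VAMPs), SNAP proteins, Rab3 GTPases and complexins. They were chosen by symbol, as every gene whose only name in the array annotation belongs to one of these 8 families, and 53 of the 14218 genes measured met that rule. From general knowledge of where each is used, 25 were classed as neuronal, 17 as ubiquitous and 11 as other or unsettled. The families held 3 synapsins, 16 synaptotagmins, 12 syntaxins, 4 syntaxin-binding proteins, 7 VAMPs, 4 proteins named SNAP, 4 Rab3 GTPases and 3 complexins.

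The tissue was lateral cortex from male Wistar rats, 8 weeks old and the labels name no genotype, and no drug other than anaesthesia. Every animal, shams included, had a craniectomy over the right parietal cortex with an adapter cemented to the skull, and was housed for 48 h before the second procedure. Injured rats then received a lateral fluid percussion of moderate strength, in which a pulse of saline through the adapter strikes the dura and bruises the cortex below, and sham rats were given none. After saline perfusion at 3, 6, 12 or 48 h, the cortex matching the contusion was dissected and its polyadenylated RNA hybridised to whole-genome rat arrays. Injured cortex gave 3 arrays at each time and sham cortex 1 array at each time. The study compared the injured arrays of 3, 6 and 12 h with the shams of those times as 1 control group of 3 (here the early shams), and the 48 h arrays with the 48 h sham, which its authors found distinct. The labels do not say that each array is a separate animal, so p-values measure the spread between arrays. A control of 1 array, such as the 48 h sham, shows no spread of its own. Standard errors and p-values of comparisons with it therefore rest on the spread within the other groups. Whether such a control would have spread as much as they did cannot be checked. In shams too the skull over the cortex had been opened, and a region around a contusion mixes neurons, glia, vessels and any cells that enter after injury.

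In exocytosis a vesicle fuses with its target membrane when a VAMP on the vesicle zips together with a syntaxin and a SNAP-25 type protein on the membrane, forming the SNARE complex. Neurons run a fast version of this machine at the synapse, in which synapsins hold vesicles in reserve, Rab3 proteins bring them to the release site, complexins bind the SNARE complex and synaptotagmins trigger fusion when calcium enters. All cells use related members, such as Snap23, Stx4, Vamp3 and Vamp8, for constitutive secretion, endosome traffic and, in immune cells, granule release.

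The deposited values are log intensities with each probe set's median over the 16 arrays removed, so they show how an array stands relative to the others, never how abundant a transcript is. Levels cannot be set between genes, and the presence of a cell type cannot be read from its markers. The SD over all genes ran from 0.199 to 0.387 by array and was highest in injured 48 h replicate 2. Injured 12 h replicate 2 stood apart in its polyA spike-in controls, whose mean was -1.69 against -0.18 to 0.50 on the other arrays. Values below are on the log2 scale (the base is not stated and was taken as 2), differences are given with the SE of the limma model, and a gene was called when its adjusted p over all 14218 genes was under 0.05.

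From 0 to 6 of the 53 members were called in a comparison. The synaptic SNAREs Vamp2, Snap25 and Stx1a and the calcium sensor Syt1 were called in none with all arrays. At 3 h after injury limma called 0 of 53 members and 0.584% of all genes. At an unadjusted p under 0.05 were 1 member and 1358 of all genes. At 6 h Stx11 rose and Rab3b fell, which is 2 of 53, a share near the 2.67% of all genes, and at 12 h Rab3b alone was called, lower, against 4.87%. At 48 h, set against the 48 h sham as the study did, limma called 0 members and 0% of all genes, a comparison that rests on a single control array. Of the members 4 had an unadjusted p under 0.05 there, against 1061 of all genes. Set against the early shams, 6 members were called at 48 h, a share near the 9.68% of all genes: Vamp8, Vamp3, Vamp5 and Snap23 rose, and Rab3a and Syt16 fell. With the injury effect averaged over 3, 6 and 12 h, limma called 0 members and 1.92% of all genes. There 9 members and 2062 of all genes had an unadjusted p under 0.05. These comparisons share their control arrays and are therefore not independent of each other.

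**Figure D1:**
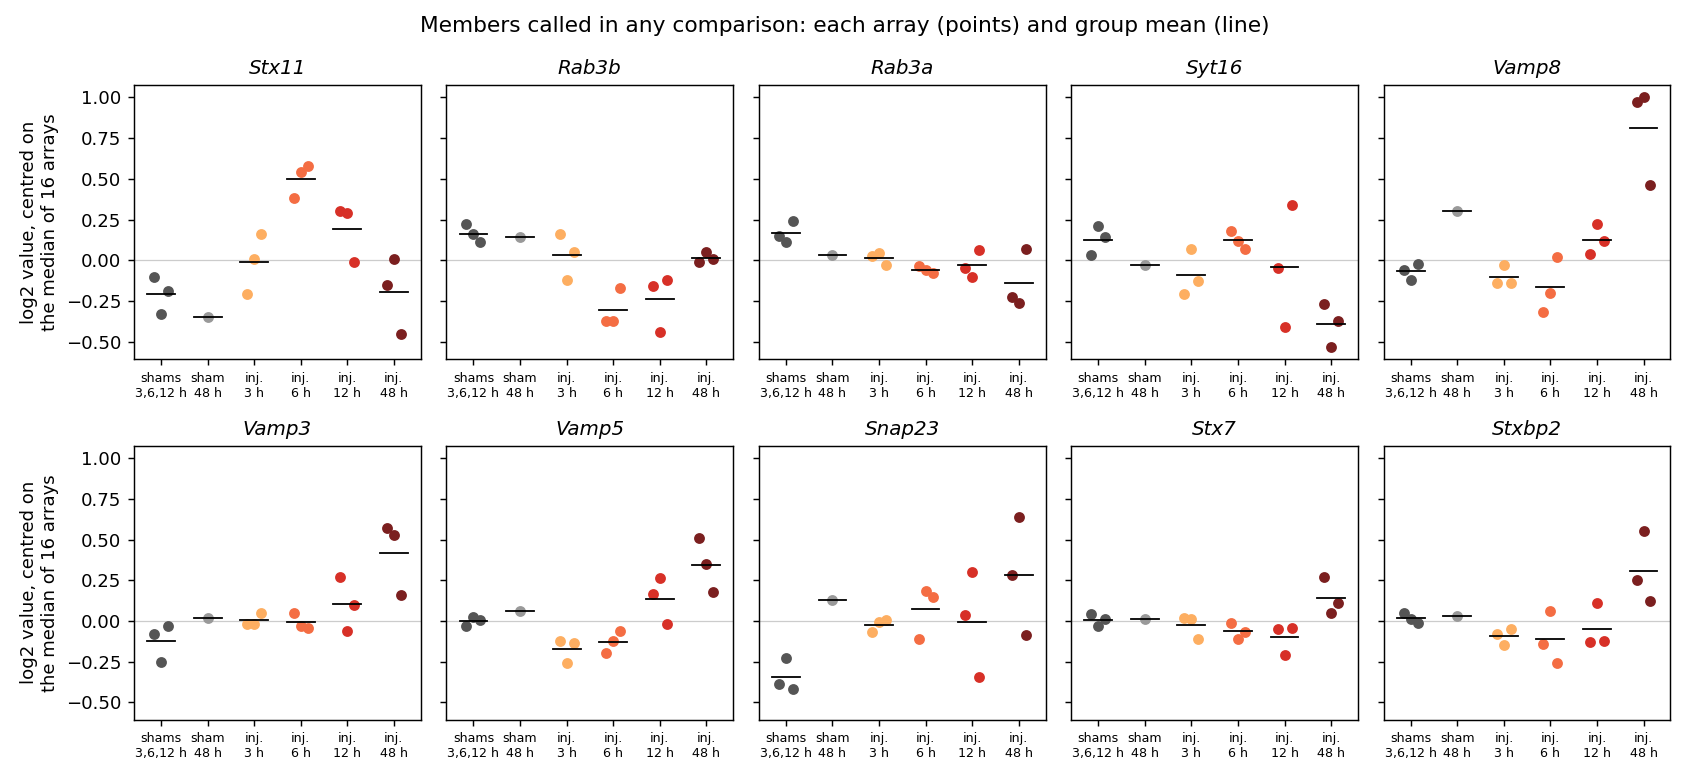
Centred log2 value of each called member on each of the 16 arrays, with 1 panel per gene, the groups along the horizontal axis, 1 point per array and a bar at each group mean. Vamp8 stood at 0.46 to 1.0 on the injured 48 h arrays and at or below 0.30 on every other array, while Rab3b lay at -0.12 or lower on all injured 6 h and 12 h arrays.

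Of the 7 vesicle SNAREs Vamp8, Vamp3 and Vamp5 rose at 48 h against the early shams, and none was called against the 48 h sham. Vamp8, or endobrevin, serves late endosomes and the granules of secretory cells. Its centred values on the 3 injured 48 h arrays were 0.97, 1.0 and 0.46, against -0.06, -0.12 and -0.02 on the early shams and 0.30 on the 48 h sham. All 3 injured 48 h arrays lay above all 4 shams and above every injured array of the earlier times, where Vamp8 ran from -0.32 to 0.22. Vamp8 was 1.84-fold higher than in the early shams (0.88 ± 0.13, adjusted p = 0.00143), and it remained called whichever array of that comparison was left out. Against the 48 h sham the difference was 0.51 ± 0.18 (adjusted p = 0.513), and the 48 h sham was itself 0.37 ± 0.18 above the early shams without being called. Vamp8 also rose from 12 h to 48 h after injury, by 0.68 ± 0.13 (adjusted p = 0.00329). With quantile normalization between arrays that step was 0.43 (adjusted p = 0.00829), and it was not called when only the 12 h and 48 h arrays were modelled (adjusted p = 0.0682).

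Vamp3, or cellubrevin, carries recycling endosomes to the surface. It measured 0.57, 0.53 and 0.16 on the injured 48 h arrays, against -0.08, -0.25 and -0.03 on the early shams and 0.02 on the 48 h sham, with no overlap and the third injured array nearest the shams. The rise over the early shams was 0.54 ± 0.11 (adjusted p = 0.00863), and the difference from the 48 h sham was 0.40 ± 0.16 (adjusted p = 0.583). Vamp3 stayed called with any array of the comparison left out, but had an adjusted p of 0.0566 when only the 6 arrays compared were modelled.

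Vamp5, a VAMP of muscle and other tissues, measured 0.51, 0.35 and 0.18 on the injured 48 h arrays and -0.03 to 0.02 on the early shams, with 0.06 on the 48 h sham. The rise of 0.35 ± 0.09 (adjusted p = 0.0313) came from 1 of its 3 probe sets. That probe set differed by 1.13 ± 0.26 (adjusted p = 0.018 when probe sets were tested singly), while the others stood at -0.06 and -0.04, and pairs of its probe sets correlated at -0.45 to 0.03 over the 16 arrays. Vamp5 was no longer called when any of the arrays compared other than injured 48 h replicate 3 was left out (adjusted p up to 0.122).

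The promoters of Vamp8 and Vamp5 are shown because these genes are neighbours on rat chromosome 4 and were both called higher at 48 h. Those of Stx11 and Rab3b are shown beside them as the members called at 6 h. Each line is the 250 bases before the RefSeq start of the gene on assembly GRCr8, read 5′ to 3′ on the gene's own strand, with GGGCGG, the Sp1 GC box, in capitals. Vamp8 lies at chr4:106005643-106005892 and Vamp5 at chr4:105993248-105993497, both on the minus strand, Stx11 at chr1:9140220-9140469 on the minus strand and Rab3b at chr5:128858841-128859090 on the plus strand.
Vamp8: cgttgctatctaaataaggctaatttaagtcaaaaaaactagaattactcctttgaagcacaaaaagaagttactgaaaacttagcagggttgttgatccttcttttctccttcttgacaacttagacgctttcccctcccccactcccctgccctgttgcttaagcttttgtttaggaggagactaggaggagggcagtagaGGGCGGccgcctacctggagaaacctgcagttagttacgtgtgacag
Vamp5: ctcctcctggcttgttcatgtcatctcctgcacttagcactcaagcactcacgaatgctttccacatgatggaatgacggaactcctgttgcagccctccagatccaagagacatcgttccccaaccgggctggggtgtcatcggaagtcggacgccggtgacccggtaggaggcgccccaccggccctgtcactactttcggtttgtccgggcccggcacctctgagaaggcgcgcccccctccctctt
Stx11: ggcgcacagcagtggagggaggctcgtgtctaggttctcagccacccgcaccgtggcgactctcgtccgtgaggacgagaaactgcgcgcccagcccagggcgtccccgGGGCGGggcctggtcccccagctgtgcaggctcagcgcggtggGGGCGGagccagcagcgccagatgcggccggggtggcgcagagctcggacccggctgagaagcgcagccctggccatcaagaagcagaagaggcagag
Rab3b: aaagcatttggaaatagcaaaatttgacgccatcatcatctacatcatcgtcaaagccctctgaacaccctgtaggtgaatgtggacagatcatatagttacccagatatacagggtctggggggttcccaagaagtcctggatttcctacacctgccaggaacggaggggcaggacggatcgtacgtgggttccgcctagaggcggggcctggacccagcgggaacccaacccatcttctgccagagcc
Vamp8 carried 1 GGGCGG and Stx11 2, while Vamp5 and Rab3b had none on either strand. The GC content was 45.2% for Vamp8, 60.8% for Vamp5, 71.6% for Stx11 and 53.6% for Rab3b.

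The synaptic VAMPs gave no call. Vamp2, synaptobrevin-2 and the main vesicle SNARE of cortical synapses, had the smallest SD over the 16 arrays of all members, 0.055, and differed by -0.01 ± 0.07 at 6 h and -0.02 ± 0.07 at 48 h from the early shams (adjusted p = 0.97 and 0.864). Its probe sets did not move together (r = -0.34). Vamp1, synaptobrevin-1, measured -0.60, -0.22 and 0.03 on the injured 48 h arrays and -0.03 to 0.09 on the early shams, so the groups overlapped (-0.31 ± 0.12, adjusted p = 0.138). On injured 48 h replicate 1 its 3 probe sets read -1.38, -0.25 and -0.16, so the low average there rested mainly on 1 of them. Vamp4 of the trans-Golgi network and Vamp7 of lysosomes, named to complete the family, were not called and differed from the early shams by no more than 0.16 in size at any time.

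Microglia markers were higher on all 3 injured 48 h arrays, as were Vamp8, Vamp3 and Vamp5, whereas Snap23 was high on replicates 1 and 2 and at -0.09 on replicate 3. Of the 11 markers measured 9 were called higher at 48 h against the early shams, and their mean ran from 1.12 to 2.00 on the injured 48 h arrays, -0.01 to 0.24 on the early shams, and 0.55 on the 48 h sham. Neutrophil and monocyte markers had 5 of 11 called higher, with a mean of -0.14 to 1.17 against -0.74 to -0.59, and astrocyte markers 3 of 12, with a mean of 0.19 to 0.25 against -0.01 to 0.02. Meninges and fibroblast markers had 2 of 9 called higher, with a mean of 0.82 to 1.43 against 0.04 to 0.59, and stood at 1.14 on the 48 h sham. Of the 13 oligodendrocyte, 11 endothelial, 5 choroid plexus and 3 erythrocyte markers limma called 0 at 48 h against the early shams, with 3, 1, 0 and 0 at an unadjusted p under 0.05. The part of these cells in the rise of the 4 members was not tested. In bulk tissue a change in the share of a cell type and a change in RNA per cell cannot be told apart.

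On the target membrane, the ubiquitous Snap23 was higher at 48 h and the neuronal Snap25 was not called. Snap23, the SNAP-25 relative of most cells, measured 0.28, 0.64 and -0.09 on the injured 48 h arrays against -0.39, -0.23 and -0.42 on the early shams, with 0.13 on the 48 h sham. The injured arrays lay above every early sham, but injured 48 h replicate 3 lay below the 48 h sham. Snap23 rose by 0.62 ± 0.17 over the early shams (adjusted p = 0.0362) and differed by 0.15 ± 0.24 (adjusted p = 0.937) from the 48 h sham, which stood 0.47 ± 0.24 above the early shams without a call. Both of its probe sets were higher, by 0.49 and 0.76. It was no longer called without any of injured 48 h replicates 1 and 2 or the 3 early shams (adjusted p up to 0.169, without replicate 2), and stood at 0.80 (adjusted p = 0.00572) without replicate 3. Snap23 was already 0.32, 0.42 and 0.34 above the early shams at 3, 6 and 12 h, none of them called.

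Snap25, which pairs with syntaxin-1 at the synapse, differed from the early shams by -0.11 ± 0.07 at 48 h (adjusted p = 0.382) and by -0.04 or less in size at the earlier times. Its SD over all arrays was 0.07, against a median of 0.151 over all genes. Snap29 of autophagosomes differed by -0.04, 0.08 and -0.03 at 6, 12 and 48 h. Snap91 is the clathrin adaptor AP180 of vesicle retrieval, no SNARE despite its name, and its differences lay between -0.02 and 0.08 at all times.

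Of the syntaxins only Stx11 was called against shams in the main model. Stx11 is the syntaxin of immune cells, needed for granule release. It measured 0.38, 0.54 and 0.58 on the injured 6 h arrays against -0.10, -0.33 and -0.19 on the early shams, and 0.30, 0.29 and -0.01 at 12 h. At 3 h it ran from -0.21 to 0.16 and at 48 h from -0.45 to 0.01, so that the 6 h arrays lay above all others. The rise at 6 h was 1.63-fold (0.71 ± 0.13, adjusted p = 0.00846). At 12 h the difference was 0.40 ± 0.13 (adjusted p = 0.098) and at 48 h 0.01. Without the 6 h sham the 6 h difference was 0.64 (adjusted p = 0.0507), and against the 6 h sham alone it was 0.83 (adjusted p = 0.123).

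Neutrophil and monocyte markers were higher on the arrays with high Stx11. At 6 h 3 of 11 measured markers were called higher, with a mean of 0.59 to 1.34 on the injured arrays and -0.74 to -0.59 on the early shams. At 12 h 4 were called and the mean was 0.92 to 1.83, while at 3 h it was -0.50 to -0.23 with none called. The highest 48 h array reached 1.17 where Stx11 stood at 0.01, the highest of its 48 h values. Endothelial markers had 5 of 11 called lower and 2 higher at 6 h, and microglia markers 3 of 11 lower. Meninges and fibroblast markers had 3 of 9 called lower, and erythrocyte markers 1 of 3 higher, with a mean of 0.53 to 1.20 against -1.01 to -0.40 on the early shams. The part of these cells in the Stx11 rise was not tested.

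Stx1a, a plasma membrane SNARE of transmitter release, measured -0.36, -0.25 and 0.07 on the injured 48 h arrays against 0.26, 0.00 and 0.01 on the early shams (-0.27 ± 0.11, adjusted p = 0.159). Stx4, the plasma membrane syntaxin of most secreting cells, had differences of 0.32 ± 0.14 at both 12 h and 48 h from the early shams (adjusted p = 0.203 and 0.167), and the 48 h sham stood 0.40 ± 0.20 above them. Stx7, of late endosomes, rose from 12 h to 48 h by 0.24 ± 0.08 (adjusted p = 0.0438), from -0.05, -0.21 and -0.04 to 0.27, 0.05 and 0.11, without overlap. It did not differ past the threshold from the early shams at either time (-0.11 and 0.14). The step in Stx7 lost its call without injured 12 h replicate 2 (0.19, adjusted p = 0.148) or replicate 3, and without injured 48 h replicate 1 (0.18, adjusted p = 0.166) or replicate 3. The other syntaxins with no call against shams in the main model included 2 named after their values were seen: Stx3, at -0.39 at 6 h (adjusted p = 0.073), and Stx8, at -0.30 (adjusted p = 0.051). Both were called lower at 6 h with quantile normalization or array weights. Stx3 was also called lower at 3 h with array weights, and at 3, 6 and 12 h without the 3 h sham. Its early shams differed widely, at -0.025, 0.30 and 0.46. Stx8 was also called at 6 h without injured 6 h replicate 3.

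The Rab3 GTPases, which bring vesicles to the release site, were lower than in the early shams in all 4 members at 6, 12 and 48 h by sign, and Rab3b and Rab3a were the ones called. For Rab3d the sign at 12 h rested on injured 12 h replicate 2, at -0.64 beside 0.07 and 0.09. At 48 h its lowest array was also replicate 2, at -0.22 beside 0.04 and 0.02. Against the 48 h sham, 3 of the 4 members were below 0 and Rab3c was above. Rab3b, found in some neurons and in the pituitary, measured -0.37, -0.37 and -0.17 at 6 h and -0.16, -0.44 and -0.12 at 12 h, against 0.22, 0.16 and 0.11 on the early shams. No injured array of 6 or 12 h reached the lowest sham. It fell by 0.47 ± 0.10 at 6 h (adjusted p = 0.0179), which is 1.38-fold lower, and by 0.40 ± 0.10 at 12 h (adjusted p = 0.0275). At 48 h it measured -0.01, 0.05 and 0.01, all below every sham, with a difference from the early shams of -0.15 that was not called.

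The Rab3b calls rested on few arrays. At 6 h the call was lost without injured 6 h replicate 1 or 2, the 3 h sham or the 6 h sham (adjusted p 0.0654 to 0.0952, difference -0.43 to -0.47). At 12 h it was lost when injured 12 h replicate 2, whose spike-ins were low, was left out (-0.30, adjusted p = 0.12), and likewise without any of the 3 h, 6 h and 12 h shams (adjusted p 0.0527 to 0.104). Against the sham of the same time alone the differences were -0.46 (adjusted p = 0.333) and -0.35 (adjusted p = 0.476).

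Rab3a, the main Rab3 of synaptic vesicles, measured -0.225, -0.26 and 0.07 on the injured 48 h arrays, against 0.15, 0.11 and 0.24 on the early shams and 0.03 on the 48 h sham. Replicates 1 and 2 were low, and replicate 3 lay just under the lowest early sham and above the 48 h sham. Rab3a fell by 0.30 ± 0.09 from the early shams (adjusted p = 0.0373) and differed by -0.17 ± 0.12 from the 48 h sham (adjusted p = 0.808). Without injured 48 h replicate 3 it was -0.41 (adjusted p = 0.00262), and the call was lost without any other array compared (adjusted p up to 0.172, without replicate 2). With the probe set of largest SD in place of the average it had an adjusted p of 0.0507, and neither of its probe sets was called by itself (adjusted p = 0.0536 and 0.0684). Rab3c, also of synaptic vesicles, had differences of -0.26, -0.26 and -0.31 at 6, 12 and 48 h, and stood at -0.41 ± 0.24 on the 48 h sham against the early shams, none called. Rab3d, of exocrine granules, differed by -0.17, -0.19 and -0.08.

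Of the 16 synaptotagmins, the calcium sensors and their relatives, Syt16 was the only one called. Syt16 does not bind calcium. It measured -0.27, -0.53 and -0.37 on the injured 48 h arrays against 0.03, 0.21 and 0.14 on the early shams and -0.03 on the 48 h sham, with all injured arrays below all 4 shams. It fell by 0.52 ± 0.15 from the early shams (adjusted p = 0.0396) and differed by -0.36 ± 0.21 from the 48 h sham (adjusted p = 0.751). The Syt16 call was lost whichever of the 6 arrays was left out, with an adjusted p of 0.0539 to 0.163 and a difference of -0.45 to -0.58.

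Syt1, the sensor of fast synchronous release, had differences of -0.22, -0.25, -0.26 and -0.27 from the early shams at 3, 6, 12 and 48 h, and its lowest adjusted p was 0.195. It measured -0.32, -0.19 and 0.17 at 48 h against 0.20, 0.12 and 0.16 on the early shams, so that only replicates 1 and 2 lay below them. Syt4, the activity-induced member, lay within 0.08 of the early shams at each time, with probe sets that did not move together (r = -0.04). Syt10, which seizures induce, had differences of 0.13, -0.14, -0.18 and 0.06 at 3, 6, 12 and 48 h, none called. Syt12, of synaptic vesicles, varied most of all members (SD 0.434, named after its values were seen). Its values on the injured 12 h arrays alone were -0.21, 0.89 and -0.61, and its 48 h difference of -0.67 ± 0.29 was not called (adjusted p = 0.162).

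The complexins, synapsins and syntaxin-binding proteins gave no call against shams. Cplx1 and Cplx2, which bind the assembled SNARE complex in chiefly inhibitory and chiefly excitatory neurons, differed by -0.23 ± 0.09 and -0.32 ± 0.13 at 48 h (adjusted p = 0.127 and 0.145). For Cplx2 the injured 48 h arrays read -0.35, -0.34 and 0.08, replicate 3 lying within the shams. Syn1 and Syn2, which tether the reserve pool, were below every early sham on all injured arrays at 6 h and 12 h, with differences of -0.17 and -0.20 at 6 h (adjusted p = 0.539 and 0.388). Their 48 h differences were -0.08 and -0.10 from the early shams but 0.19 and 0.11 from the 48 h sham. Stxbp2, or Munc18-2, the granule release partner of Stx11 in immune cells, rose from 12 h to 48 h by 0.35 ± 0.11 (adjusted p = 0.0446), from -0.13, 0.11 and -0.12 to 0.25, 0.55 and 0.12. The lowest 48 h array was only just above the highest of 12 h, and the call was lost without injured 12 h replicate 1 or 3 or injured 48 h replicate 1 or 2 (lowest 0.23, adjusted p = 0.182, without 48 h replicate 2). Stxbp3, or Munc18c, the partner of Stx4, differed by -0.30 ± 0.13 at 6 h (adjusted p = 0.322).

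From one injured time to the next, Vamp8, Stx7 and Stxbp2 from 12 h to 48 h were the only members called, 3 of 53 against 15.3% of all genes. None of the 3 was called with only those 2 groups modelled (adjusted p = 0.0682, 0.218 and 0.198), and with quantile normalization Stx7 and Stxbp2 were not (adjusted p = 0.105 and 0.126). From 3 h to 6 h limma called 0 members and 1.2% of all genes. An unadjusted p under 0.05 was reached by 5 members and 2094 of all genes. From 6 h to 12 h limma called 0 members and 0.0141% of all genes. There 3 members and 1249 of all genes had an unadjusted p under 0.05. The 2 members called at 6 h against shams had steps of 0.51 ± 0.13 for Stx11 (adjusted p = 0.0762) and -0.33 ± 0.10 for Rab3b (adjusted p = 0.12) from 3 h to 6 h.

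The neuronal members as a class lay slightly below the early shams from 6 h on, and the ubiquitous members at 6 h. The median difference of the 25 neuronal members was -0.01, -0.10, -0.13 and -0.15 at 3, 6, 12 and 48 h, against -0.01, -0.02, -0.02 and -0.01 over all genes. The median of the 17 ubiquitous members was -0.03, -0.10, 0.01 and -0.01. The difference between the classes was not tested. By sign, 24 of 25 neuronal members were below 0 at 6 h, 21 at 12 h and 22 at 48 h, while 56.6%, 53.9% and 52.3% of all genes were. Of the 17 ubiquitous members 11, 8 and 9 were below 0 at those times. Each single difference is small: 1 neuronal member was called at each of 6, 12 and 48 h. The neuronal members share neurons as a source, so they are not independent of each other and these counts carry no test.

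**Figure D2:**
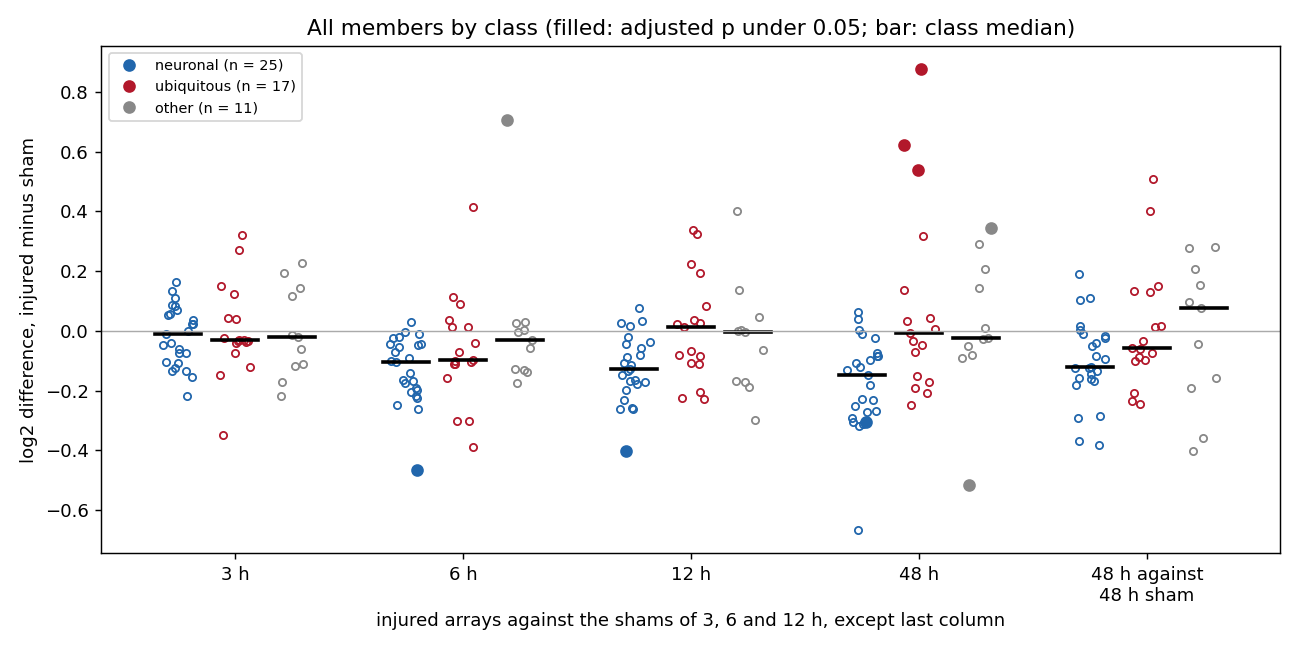
Log2 difference of each member from the early shams at each time after injury, by class, with 1 point per gene and a bar at the class median. The last column sets the injured 48 h arrays against the 48 h sham instead. Against the early shams the neuronal medians go from -0.01 at 3 h to -0.15 at 48 h, while the ubiquitous points at 48 h spread from -0.25 to 0.88 around a median of -0.01.

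Counted by arrays that do not overlap, the 3 injured arrays lay above all 3 early shams for 5 members at 3 h and below them for 6, where 7.49% and 10.3% of all genes did so. At 6 h the counts were 2 above and 12 below, against 10.8% and 12.8% of all genes, and at 12 h they were 2 above and 11 below, against 10.5% and 11%. At 48 h there were 7 above and 9 below, against 14.7% and 14.7%. The 12 below at 6 h included 8 neuronal and 3 ubiquitous members, and the 11 at 12 h again 8 neuronal and 3 ubiquitous. At 48 h 5 of the 7 above were ubiquitous and 5 of the 9 below were neuronal, with no neuronal member above at 6, 12 or 48 h.

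By array, the median over neuronal members was -0.16, -0.16 and 0.04 on the injured 48 h arrays, 0.07 to 0.10 on the early shams and 0.02 on the 48 h sham. Injured 48 h replicate 3 thus lay with the shams in this class, as it did for Syt1 and Cplx2. Without replicate 3, 13 members were called at 48 h against the early shams, 5 higher and 8 lower, and 2054 of all 14218 genes were called, against 1377 with it. Those were Cplx1, Cplx2, Rab3a, Stx16, Stx1a, Syt1, Syt13 and Vamp1 lower, and Snap23, Stxbp2, Vamp3, Vamp5 and Vamp8 higher, and Syt16 was no longer among them. Without any other single array of that comparison Vamp3 and Vamp8 were the 2 called, with 482 to 903 of all genes. Against the 48 h sham and without replicate 3, Vamp8 was the 1 member called. All genes called there were 129, against 0 with replicate 3. With all 4 shams as control Snap23 and Rab3a were no longer called (adjusted p = 0.0958 and 0.0559), and with quantile normalization Vamp5 was not (0.25, adjusted p = 0.0622).

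Neuron markers moved with the neuronal members. Of 17 markers measured 2 were called lower at 48 h and 1 at 12 h against the early shams, and the median difference was -0.14, -0.15 and -0.21 at 6, 12 and 48 h. The mean over the markers was -0.19, -0.21 and 0.05 on the injured 48 h arrays, -0.11 to -0.05 at 12 h, -0.06 to 0.02 at 6 h and 0.07 to 0.16 on the early shams. Replicate 3 at 48 h was again the array nearest the shams. The part of a change in neurons as a whole in the members' values was not tested.

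**Figure D3:**
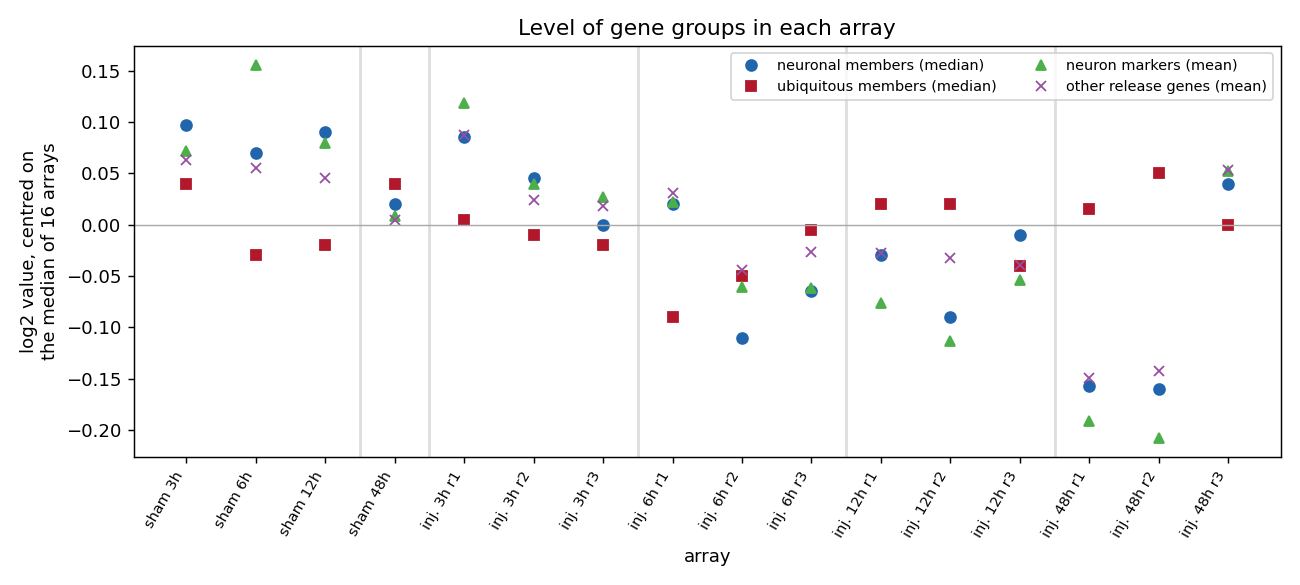
Median centred log2 value over the neuronal and the ubiquitous members, and mean over the neuron markers and the other genes of transmitter release described below, on each of the 16 arrays by group. The neuronal members and the neuron markers are lowest on injured 48 h replicates 1 and 2 (-0.16 and -0.16 for the members, -0.19 and -0.21 for the markers) and not on replicate 3. The other genes of transmitter release are at -0.15, -0.14 and 0.05 on replicates 1, 2 and 3.

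The choice of control changed the calls at 48 h. Between the 48 h sham and the early shams limma called 0 members and 0.00703% of all genes. There 1 member and 973 of all genes had an unadjusted p under 0.05. The 48 h sham stood above the early shams for Snap23 (0.47 ± 0.24), the synapsin Syn3, named after its values were seen (0.41 ± 0.13), and Vamp8 (0.37 ± 0.18), and below them for Rab3c (-0.41 ± 0.24), none called. For the 6 members called at 48 h against the early shams, the difference from the 48 h sham had the same sign and a smaller size. The neuronal median was -0.12 against the 48 h sham, with 20 of 25 members below 0 and 50.2% of all genes, and the ubiquitous median was -0.06.

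**Figure D4:**
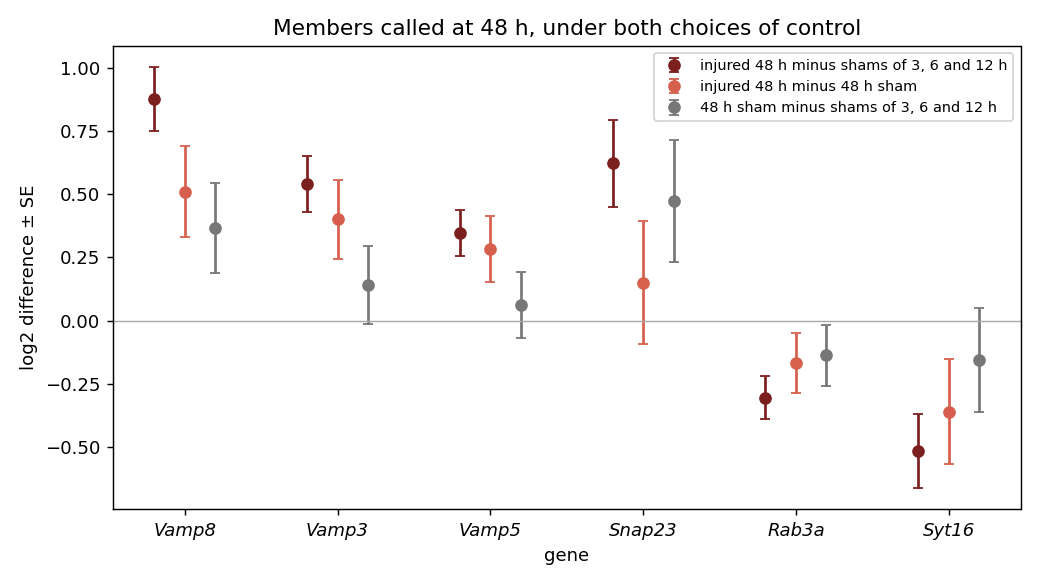
Log2 difference with its SE for the 6 members called at 48 h, as injured 48 h minus the early shams, injured 48 h minus the 48 h sham, and 48 h sham minus the early shams. Against the 48 h sham, where none is called, the difference is 0.51 in place of 0.88 for Vamp8, 0.40 in place of 0.54 for Vamp3, 0.28 in place of 0.35 for Vamp5 and 0.15 in place of 0.62 for Snap23.

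Other genes of transmitter release came from a list of 56, of which 50 were measured. The list shares Slc17a7 with the neuron markers. They comprise active zone proteins, vesicle transporters and pumps, and endocytosis factors. By limma none was called at 3 h or 6 h against the early shams. At an unadjusted p under 0.05 were 2 and 5, against 1358 and 2029 of all genes. From the list 1 was called lower at 12 h and 3 at 48 h against the early shams, and none higher. Of all genes 0.584%, 2.67%, 4.87% and 9.68% were called at 3, 6, 12 and 48 h. Rims2, an active zone scaffold that binds Rab3, fell by 0.37 ± 0.08 at 12 h (adjusted p = 0.0211) and by 0.50 ± 0.08 at 48 h (adjusted p = 0.00326). Slc32a1, the vesicular transporter of GABA and glycine, fell by 0.44 ± 0.11 (adjusted p = 0.0262) at 48 h, and Ppfia3, a liprin of the active zone, by 0.43 ± 0.13 (adjusted p = 0.0476). The median over the 50 was -0.01, -0.10, -0.10 and -0.12 at 3, 6, 12 and 48 h, near that of the neuronal members, and 42 of 50 were below 0 at 48 h. Against the 48 h sham none was called (5 at an unadjusted p under 0.05, against 1061 of all genes). There the median was -0.04 and 30 of 50 were below 0.

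Members differed in how much they varied at all. The median SD over the 16 arrays was 0.139 over the 53 members, 0.15 over the neuronal, 0.129 over the ubiquitous and 0.191 over the other members, against 0.151 over all genes. The core synaptic SNAREs Vamp2 (0.055) and Snap25 (0.07) lay at the low end, with Snap91 (0.072). Stx12, of recycling endosomes (0.057), and Syt7, of asynchronous release and lysosomes (0.067), lay there too and were named after their values were seen. Vamp8 (0.386), Stx11 (0.317) and Snap23 (0.279) lay at the high end beside Syt12. Vamp2, Snap91, Stx12 and Syt7 are averages of probe sets that did not move together (r from -0.34 to 0.08), which by itself lowers an SD. Snap25, Vamp8, Stx11 and Syt12 rest on 1 probe set each. The SDs of members with different numbers of probe sets are therefore not alike.

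Of the 53 members 42 had a promoter in the RefSeq table. Their 250 bases held GGGCGG, on either strand, in 27 (64.3%), against 32.4% of all 27457 promoters of that length, with 13 of 18 neuronal (72.2%) and 10 of 15 ubiquitous members (66.7%). Their median GC content was 61.2% against 52% over all promoters. TATAAA was found in 1 member (2.38% against 13.1%), TGACGTCA, the cAMP response element, in 2 (4.76% against 1.7%) and GAAANNGAA, an interferon regulatory factor core, in 4 (9.52% against 7.99%). TGANTCA, the AP-1 site, was in none (0% against 6.36%). These are letters in a window and say nothing of whether a factor binds.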

How the data were processed

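Gene expression in lateral cortex was measured on 16 arrays. The deposited values are log intensities, here read as log2, made by the authors with RMA (which corrects background, equalises array distributions and summarises probe sets) per the submitters' processing notes, with every probe set median over the arrays at 0. Of 31099 probe sets, 20832 had exactly 1 gene symbol and 436 with several were left out. Probe sets were averaged into 14218 genes, and 53 members rested on 82 probe sets, 30 of them on a single one. A limma (3.58.1, R 4.3.3) model of 6 groups (injured at each time, early shams, 48 h sham) gave each comparison, with Benjamini-Hochberg adjustment over all genes. The injury effect averaged over 3, 6 and 12 h came from the 12 early arrays with time as a factor. The model was tested on simulated data with changes larger than the difference of any called member in the main model. That test does not bear on differences of the size reported here. Genes named are the called members and a panel named whatever its values, with a few others marked as such in the text, all chosen, like the marker lists and the classes, with earlier results of these data known. Some genes of the panel are not reported here. Alternatives changed the probe set rule, normalization, arrays modelled, weights, control and array left out. The number of arrays limits the precision, and replicate numbers were not used as pairs. A p that misses the threshold does not show that values did not differ. RefSeq names on assembly GRCr8 replaced no member's symbol.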

Additional observations from a re-analysis of the deposited data

Results flagged for a closer look

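For 3 members the difference from the same early shams was higher at 48 h than at 12 h by a limma test of the step between the times, which leaves out the 48 h sham. Vamp8, the endosome and granule VAMP, was 0.68 higher at 48 h than at 12 h. Stxbp2, Munc18-2 of granule release, was 0.35 higher, and Stx7, the late endosome syntaxin, 0.24 higher. None of the 3 was called with only the injured 12 h and 48 h arrays modelled (adjusted p = 0.0682 for Vamp8, 0.198 for Stxbp2 and 0.218 for Stx7). Stxbp2 and Stx7 were also not called with quantile normalization (adjusted p = 0.126 and 0.105) or with array weights. Each rests on 1 probe set, so taking the probe set of largest SD left their differences the same. Their limma adjusted p then moved to 0.0514 and 0.0597, as other genes changed. For Vamp8 the 48 h sham stood 0.37 above the early shams. Microglia markers, at a mean of -0.59 to -0.19 on the injured 12 h arrays and 1.12 to 2.00 on those of 48 h, had 10 of 11 called higher over the same step. Meninges and fibroblast markers had 7 of 9 called higher, endothelial markers 6 of 11 and astrocyte markers 5 of 12, while neutrophil and monocyte markers had 4 of 11 called lower. The part of these cells was not tested.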

How the results depend on the processing

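Each choice was changed by itself and the members called were counted again. Leaving out 1 array at a time gave 0 to 1 members at 3 h, 0 to 3 at 6 h and 0 to 3 at 12 h. At 48 h it gave 2 to 13 against the early shams and 0 to 1 against the 48 h sham. It gave 1 to 5 from 12 h to 48 h and 0 to 2 for the averaged effect. All genes called then ran from 33 to 117 at 3 h, 177 to 274 at 6 h and 287 to 1230 at 12 h. At 48 h they ran from 482 to 2054 against the early shams and 1 to 129 against the 48 h sham. From 12 h to 48 h they ran from 1339 to 2442, and for the averaged effect from 62 to 448. With quantile normalization the counts were 4 at 6 h, 2 from 3 h to 6 h, 1 from 12 h to 48 h and 2 for the averaged effect. With array weights they were 1 at 3 h, 4 at 6 h, 0 at 12 h, 12 at 48 h against the early shams, 4 from 3 h to 6 h, 1 from 12 h to 48 h and 6 for the averaged effect. Counts over all genes moved as well. With weights they were 564 against 83 in the main model at 3 h and 1024 against 379 at 6 h. At 48 h against the early shams they were 2406 against 1377. From 3 h to 6 h they were 1204 against 170, and for the averaged effect 815 against 273. At 12 h they were lower, 542 against 692, as from 12 h to 48 h, 1514 against 2180. With quantile normalization all genes called were 921 at 6 h, 706 from 3 h to 6 h, 1261 from 12 h to 48 h and 429 for the averaged effect. With only the groups compared in the model the members called were 0 at 12 h, 2 at 48 h against the early shams, 1 from 3 h to 6 h and 0 from 12 h to 48 h. All genes called were then 271, 585, 551 and 388 in that order. With the sham of the same time as control the members called were 0 at 6 h and 0 at 12 h, with 70 and 77 of all genes. With all 4 shams 2 were called at 12 h, with 943 of all genes. Asking for at least 1.5-fold left 1 at 6 h, 0 at 12 h, 2 at 48 h against the early shams and 1 from 12 h to 48 h. All genes were not counted again under that limit. From 12 h to 48 h the count was 1 with the probe set of largest SD and 1 with every probe set by itself, and both ended the Rab3a call at 48 h against the early shams (5 members). Stx7 and Stxbp2, not called there from 12 h to 48 h, rest on 1 probe set each, so their differences did not change. The averaged effect, taken as a contrast in the model of 6 groups, had 2 members and 386 of all genes called. The causes were not tested, beyond fewer arrays where arrays were left out. No named difference that was called changed sign. Leaving injured 12 h replicate 2 out of the shared model was chosen after seeing the data. It gave 7 members at 48 h against the early shams, with 1790 of all genes.

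Replicate numbers of injured arrays are shared across times. Deviations of arrays with the same number correlated at -0.19 to 0.26. Arrays of different number were not set beside them, so this cannot show whether the numbers mark pairs. With a replicate block, 0 members were called from 3 h to 6 h, 0 from 6 h to 12 h and 2 from 12 h to 48 h, Stx7 being lost. All genes called were then 79, 3 and 1657. No paired analysis was possible between injured and sham arrays because they share 1 number. At 48 h a single sham limits every comparison with it.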
